A study of Oncorhynchus mykiss with 6 samples.

Results

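miR-140 and miR-455 are the microRNA families most closely tied to vertebrate cartilage, and here they are the 4 of 1939 table entries whose name is exactly miR-140 or miR-455 followed by an arm suffix. They are miR-140-x, miR-140-y, miR-455-x and miR-455-y, and all 4 passed the filter of a mean of at least 1 TPM that left 834 entries to test. The entries are selected by name, but the pair of families was chosen by a measured value, the earlier edgeR call of miR-455-y as higher in yellow fish. The difference between the groups is therefore given below as a description of these entries, and nothing is concluded from it.

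The samples are small RNA libraries of skin from the back of rainbow trout (Oncorhynchus mykiss), taken at an age of 45 days. YR is a yellow mutant with yellow skin (3 libraries), and WR is the wild type with black skin (3 libraries). The labels give no treatment for either group and no gene for the mutation, and they do not say whether each library came from a separate fish, so the spread behind every p-value is that between these libraries and may be technical. The series set out to relate miRNAs to skin colour by comparing YR with WR.

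A miRNA is cut from a hairpin-shaped RNA, whose 5p and 3p arms each give a short strand; the strand that is loaded into an Argonaute protein finds target mRNAs mainly through its seed, bases 2 to 8. In mammals and zebrafish the miR-140 hairpin lies in an intron of the ubiquitin ligase gene Wwp2, and miR-140 is abundant in chondrocytes, where the cartilage regulator SOX9 drives it. Mice without miR-140 have short bones, and in zebrafish miR-140 limits the growth factor receptor Pdgfra during palate formation. The miR-455 hairpin lies in an intron of Col27a1, which codes for a fibrillar collagen of cartilage, and miR-455 is likewise found in chondrocytes. In bulk skin, fewer cells of a type and less RNA per cell cannot be told apart, and no cartilage or scale tissue was measured separately.

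The 4 strands as the authors' deposited table lists them are shown 5′ to 3′, in DNA letters, to show that the arms carry different seeds, which stand in capitals.
miR-455-x: tATGTGCCcttggactacatcg
miR-455-y: tGCAGTCCatgggcatatacac
miR-140-x: cAGTGGTTttaccctatggtag
miR-140-y: tACCACAGggtagaaccacggact

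The 4 seeds all differ. miR-140-x, miR-455-x and miR-455-y are 22 bases long, the commonest length among the 709 known entries (283 of them), whereas miR-140-y has 24 bases, a length listed for 26 known entries. The longest run that any pair of the 4 strands shares is 5 bases. Folded against each other with RNAduplex, the miR-140 strands form 18 base pairs with a free energy of -29.4 kcal/mol, and the miR-455 strands form 17 with -25.1 kcal/mol. By their suffixes x is read here as the 5p arm and y as the 3p arm; the strands were not placed on a hairpin sequence.

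No other known entry has any of the 4 seeds at bases 2 to 8. The seed of miR-140-x is also that of 4 predicted entries, which list the same sequence with 8 reads each over the 6 libraries. A strand of the keratinocyte family miR-203 carries the same 7 letters shifted by a base, so that its own seed differs. This strand, miR-203-x, was named after its sequence and values were seen. It has at bases 1 to 7 what miR-140-x has at bases 2 to 8 (capitals).
miR-140-x: cAGTGGTTttaccctatggtag
miR-203-x: AGTGGTTcttgacagttcaaca

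The strand of miR-203-x is the less abundant arm of its family, and it stood at 81.1 ± 4.95 TPM in YR and 136 ± 32.9 TPM in WR (SD, n = 3 each), with a log2 fold change of -0.53 (SE 0.26; edgeR adjusted p = 0.263). The sign was thus opposite to that of miR-140-x. Without WR replicate 1 miR-203-x passed as lower in YR (log2 fold change -0.91, edgeR adjusted p = 0.00469), as did 10.4% of all entries. It did not pass under the other 16 alternatives.

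A predicted entry overlaps miR-455-x. Its sequence, picked out after it was seen, ends with the first 16 bases of miR-455-x (capitals) and begins 6 bases further upstream, which moves its own seed off that of miR-455-x.
miR-455-x: TATGTGCCCTTGGACTacatcg
predicted entry: tgagggTATGTGCCCTTGGACT

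This longer start was rare. It had 3, 6 and 5 reads in YR and 4, 1 and 2 reads in WR, together 0.0355% of the reads of miR-455-x, and it did not reach the 1 TPM needed for testing. Of the other 3 strands, none shared more than 10 bases in a row with any entry outside the 2 families.

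In every one of the 6 libraries the levels followed the same order, with miR-455-x highest, then miR-140-y, miR-455-y and miR-140-x. The levels of neighbours in this order did not overlap within or between the groups. By mean TPM over the 6 libraries miR-455-x was the 51st and miR-140-y the 72nd most abundant of all 1939 entries, while miR-455-y ranked 104 and miR-140-x ranked 186. The 4 entries together took 0.181%, 0.207% and 0.229% of the counts in YR and 0.181%, 0.145% and 0.127% in WR. YR replicate 1 and WR replicate 1 thus had the same share to 3 digits.

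miR-455-y, the 3p strand of miR-455, is the entry whose earlier call led to this choice. It had 2306, 2000 and 2682 reads in YR, against 1429, 1482 and 1345 in WR. As TPM these were 237, 254 and 270 in YR and 174, 170 and 152 in WR. Each YR library stood above each WR library, and in TPM the spread within a group was small, with a coefficient of variation of 6.49% in YR and 6.99% in WR. Counting error alone would give 1.93% to 2.73% per library. Means were 254 ± 16.5 TPM in YR and 165 ± 11.6 TPM in WR (SD, n = 3 each). Scaled by TMM, which assumes that most entries do not differ between libraries, the log2 fold change was 0.87 (SE 0.16), a fold of 1.82. The ratio of the TPM means was 1.53. As TMM-scaled CPM the means were 265 ± 44 in YR and 145 ± 6.11 in WR (SD, n = 3 each). The YR libraries thus spread more widely on the scale of the fold change than in TPM. TMM factors were 1.02, 0.913 and 0.841 in YR and 1.19, 1.08 and 0.988 in WR.

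miR-455-x, the abundant 5p strand of the same hairpin, had 1154, 1351 and 1335 TPM in YR and 1153, 903 and 753 TPM in WR. The groups nearly touched, since the lowest YR library stood at 1154 TPM and WR replicate 1 at 1153 TPM, and the other WR libraries lay lower. Means were 1280.3 ± 110 TPM in YR and 936 ± 202 TPM in WR (SD, n = 3 each), with a log2 fold change of 0.72 (SE 0.17) after TMM scaling.

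miR-140-y, the abundant 3p strand of miR-140, had 469, 518 and 713 TPM in YR and 544, 406 and 372 TPM in WR. These groups overlapped, since WR replicate 1 lay above both YR replicates 1 and 2. YR replicate 3 was the highest library. Means were 567 ± 129 TPM in YR and 441 ± 91 TPM in WR (SD, n = 3 each), and the log2 fold change after TMM scaling was 0.64 (SE 0.25). Counting error was at most 1.74% per library for this entry, far below the coefficients of variation of 22.7% in YR and 20.7% in WR.

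miR-140-x, the scarce 5p strand, had 465, 361 and 665 reads in YR and 246, 348 and 359 in WR, or 47.8, 45.8 and 66.9 TPM in YR and 29.9, 39.9 and 40.6 TPM in WR. The groups did not overlap, but the extremes were single libraries, YR replicate 3 at the top and WR replicate 1 at the bottom. Means were 53.5 ± 11.6 TPM in YR and 36.8 ± 5.98 TPM in WR (SD, n = 3 each), with a log2 fold change of 0.78 (SE 0.30).

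**Figure D1:**
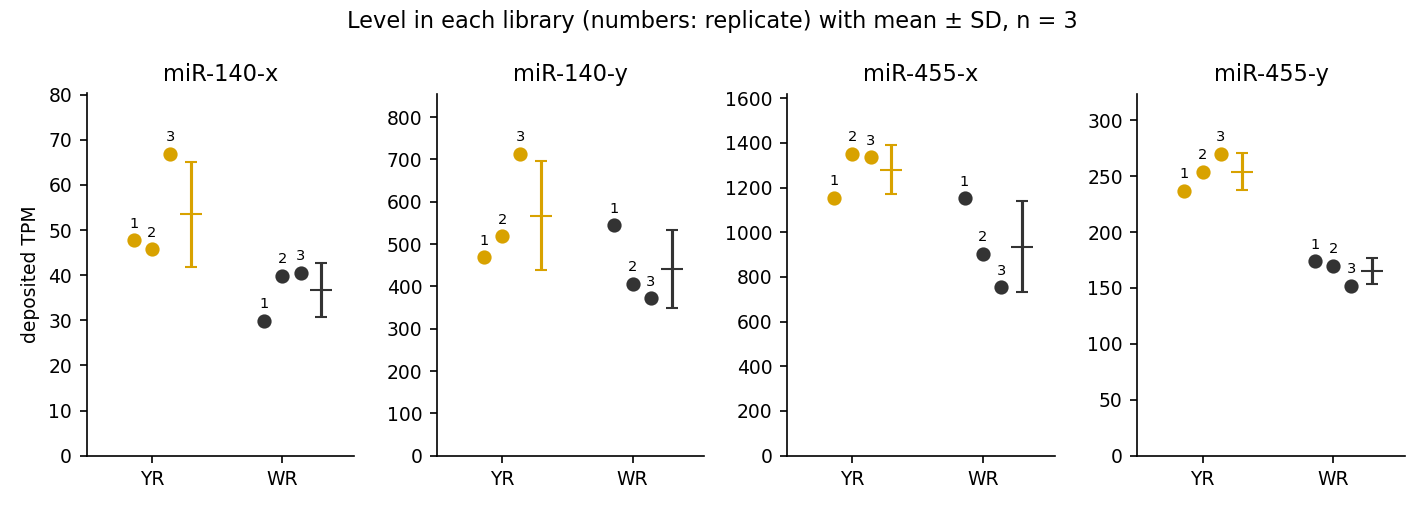
Deposited TPM (vertical axes from 0, a scale of its own for each entry) of the 4 entries in the 3 YR libraries (yellow points, left) and the 3 WR libraries (dark points, right), with mean ± SD beside them. miR-455-y separates the groups with little spread in TPM, whereas miR-140-y of WR replicate 1, at 544 TPM, lies within the YR range.

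Together the 4 entries had a median log2 fold change of 0.75, against -0.03 over all 834 entries tested. By edgeR, adjusted over all 834, 1 of the 4 entries passed the threshold of 0.05 as higher in YR, while 2.16% of all tested entries did so. That entry was miR-455-y (adjusted p = 0.0347), and since its call led to the choice, nothing is read from this share. miR-455-x missed the threshold (edgeR adjusted p = 0.0705), as did miR-140-x and miR-140-y (edgeR adjusted p = 0.201 for each). In 3 of the 4 entries every YR library had a higher TPM than every WR library, which held for 8.63% of all entries tested. After TMM scaling it held for all 4 entries, and for 17.6% of all. For miR-140-y the groups then nearly touched, at 437 CPM in YR replicate 1 and 433 CPM in WR replicate 1. Counting error was 1.48% and 1.5% in these libraries. Nothing is read from these counts of separated entries either, since miR-455-y is among them and the arms of a family are not separate results. The authors' deposited table gives log2 fold changes of 0.62 for miR-455-y, 0.45 for miR-455-x, 0.36 for miR-140-y and 0.54 for miR-140-x, each with an adjusted p of 0.391 or more.

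The size of these differences moved with the scaling. With library totals alone the log2 fold change of miR-455-y was 0.62 and the median of all entries was -0.26, so that the entry stood 0.88 above the median, against 0.90 with TMM. Likewise miR-455-x stood 0.71 above the median with library totals and 0.75 with TMM. For miR-140-y these distances were 0.62 and 0.67, and for miR-140-x they were 0.80 and 0.81. A scaling moves nearly all entries by a like amount, so such distances are close by construction and say nothing about stability. All 4 entries kept a positive sign under all 17 alternatives.

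The call of miR-455-y changed with the setting and when single libraries were left out, as did the number of calls over all entries. By DESeq2 2 of the 4 entries passed as higher in YR, miR-455-y (adjusted p = 0.00111) and miR-455-x (0.0369), while 3.84% of all entries did so. Without WR replicate 1 the same entries passed (edgeR adjusted p = 0.0182 each), beside 3.72% of all. The call of miR-455-y was lost in 13 of the 17 alternatives. Among these were the removal of WR replicate 2 (edgeR adjusted p = 0.172) or 3 (0.123), and of YR replicate 1 (0.0741), 2 (0.127) or 3 (0.125). Without WR replicate 2 or 3 or YR replicate 1 or 3, edgeR called 0 of all 834 entries higher in YR. Without YR replicate 2 it called 1. The loss was thus not particular to miR-455-y. WR replicate 1 was the library least like its group, with a chi-square per degree of freedom of 545 and 693 against WR replicates 2 and 3, which gave 91.4 between themselves. Without it the log2 fold change was 0.68 for miR-455-y, 0.66 for miR-455-x, 0.58 for miR-140-y and 0.44 for miR-140-x. Both miR-455-y, from 0.87 (SE 0.16), and miR-140-x, from 0.78 (SE 0.30), thus moved by more than 1 SE with this library. Without YR replicate 3 miR-140-y moved by more than 1 SE as well, from 0.64 (SE 0.25) to 0.35. The chi-square per degree of freedom of that library was 319 and 163 against YR replicates 1 and 2, which gave 89.8 between themselves.

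**Figure D2:**
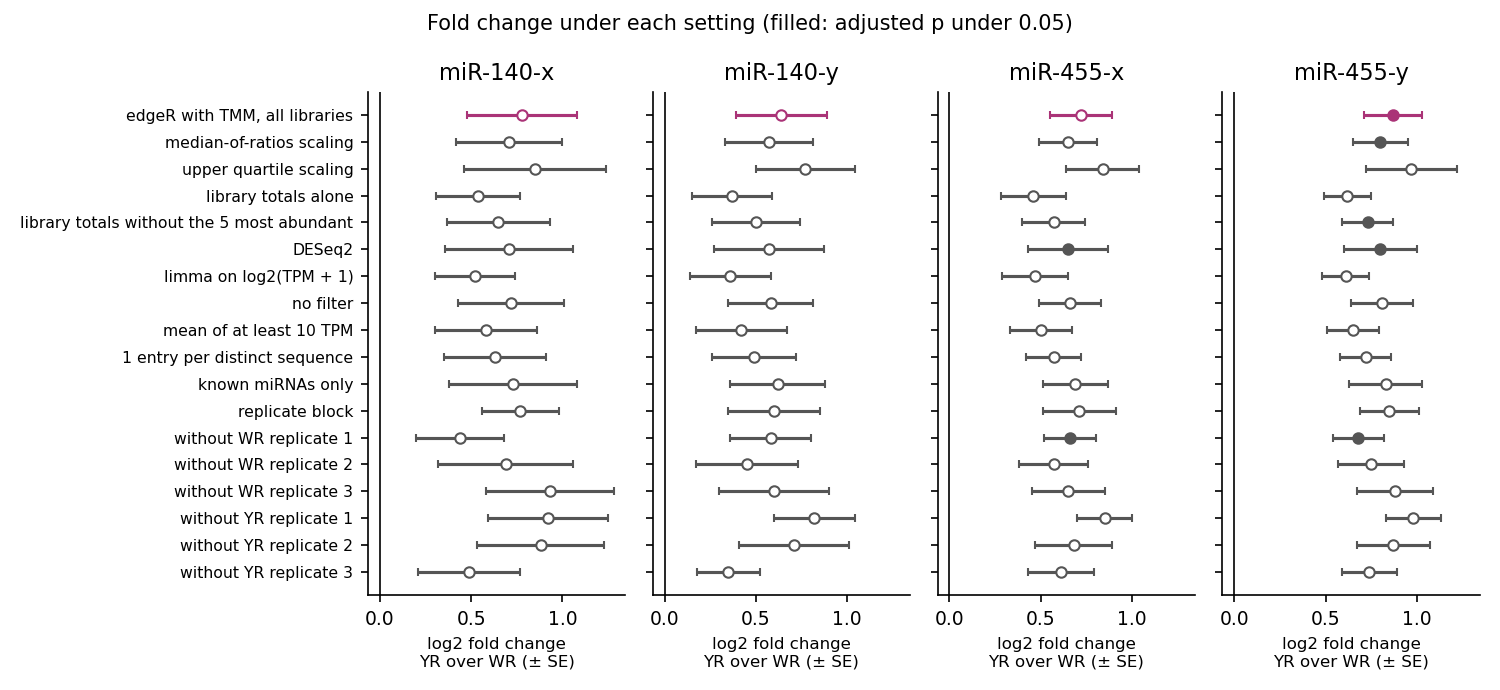
Log2 fold change of YR over WR with its SE (horizontal axes) for each of the 4 entries under edgeR with TMM (top row) and the 17 alternatives, with filled points where the adjusted p was under 0.05. All points lie above 0, from 0.35 for miR-140-y without YR replicate 3 to 0.98 for miR-455-y without YR replicate 1.

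The families differ in which arm prevails. miR-455 was read mainly from its x strand, and miR-455-y made up 17%, 15.8% and 16.8% of the reads of both arms in YR and 13.1%, 15.8% and 16.8% in WR. miR-140 was read mainly from its y strand, and miR-140-x made up 9.24%, 8.13% and 8.58% in YR and 5.21%, 8.96% and 9.84% in WR. In both families WR replicate 1 had the lowest share of the minor arm, and its 95% exact binomial interval (12.5% to 13.7% for miR-455-y and 4.6% to 5.89% for miR-140-x) lay below the intervals of the other 5 libraries. Such intervals cover counting error only. WR replicate 1 had the lowest minor-arm share of the 6 libraries in 24 of the 112 families with both arms tested, and WR replicate 3 in 29.

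Between the groups the arm ratios overlapped. The log2 ratio of x to y was 2.33 ± 0.07 in YR and 2.48 ± 0.22 in WR for miR-455 (SD, n = 3 each), a difference of -0.15 (SE 0.17; limma adjusted p = 0.81 over 112 pairs). For miR-140 it was -3.38 ± 0.10 in YR and -3.54 ± 0.52 in WR, a difference of 0.16 (SE 0.28; limma adjusted p = 0.844). Of the 112 pairs, 0.893% passed. Without WR replicate 1 the difference was -0.02 for miR-455 and turned to -0.14 for miR-140 (limma adjusted p = 0.935 and 0.566). A ratio of strands within a library does not depend on the scaling between libraries, and neither does the ratio of the families: miR-455 had 2.69, 2.85 and 2.06 times the reads of miR-140 in YR and 2.31, 2.41 and 2.19 times in WR.

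**Figure D3:**
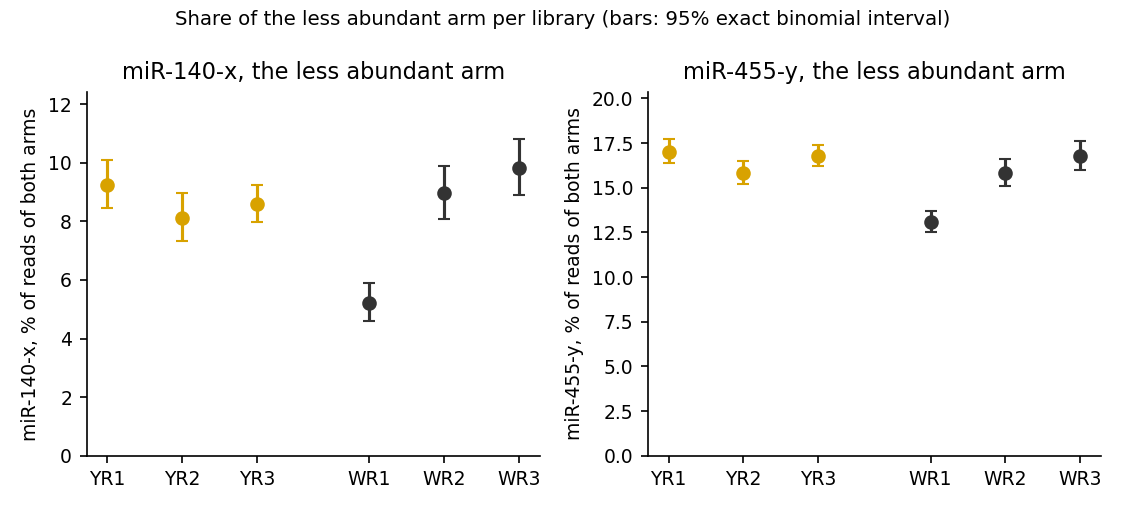
Share of the less abundant strand (miR-140-x, left; miR-455-y, right) in the reads of both strands of its family, in percent, for each YR and WR library, with 95% exact binomial intervals. In both families the lowest share is that of WR replicate 1, 5.21% and 13.1%, and the other libraries of both groups lie together.

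Across the libraries the 4 entries did not follow each other equally closely. Likeness was measured as the root mean square difference of log2 CPM profiles (TMM scaled, each centred on its own mean) over the 6 libraries, among 255 known entries with a mean of at least 10 TPM. miR-455-x and miR-455-y differed by 0.152, miR-455-x and miR-140-y by 0.162, and the arms of miR-140 by 0.323; the median entry differed from miR-455-y by 0.494. The prevailing strands of the 2 families were thus closer to each other than the arms of miR-140 were. Profiles most like that of miR-455-y were those of miR-460-x (0.091), miR-460-y (0.111), miR-218-z (0.134), miR-99-z (0.138) and miR-199-y (0.148), all ahead of its own opposite arm. This measure uses the difference between the groups, and counting error is smaller for abundant entries, so it only describes these 6 libraries.

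miR-460-x stood at 198 ± 20.4 TPM in YR and 134 ± 18.7 TPM in WR (SD, n = 3 each), close to miR-455-y in level as well. miR-460-y had 14.9 ± 1.34 TPM in YR and 8.48 ± 1.08 TPM in WR, and miR-218-z had 18.3 ± 1.49 TPM in YR and 12.8 ± 2.25 TPM in WR. miR-99-z was higher, at 908 ± 75.5 TPM in YR and 615 ± 50.8 TPM in WR. For miR-455-x and for miR-140-y the nearest entry outside the 2 families was miR-199-y, at distances of 0.071 and 0.188. For miR-140-x it was miR-722-y (0.147).

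**Figure D4:**
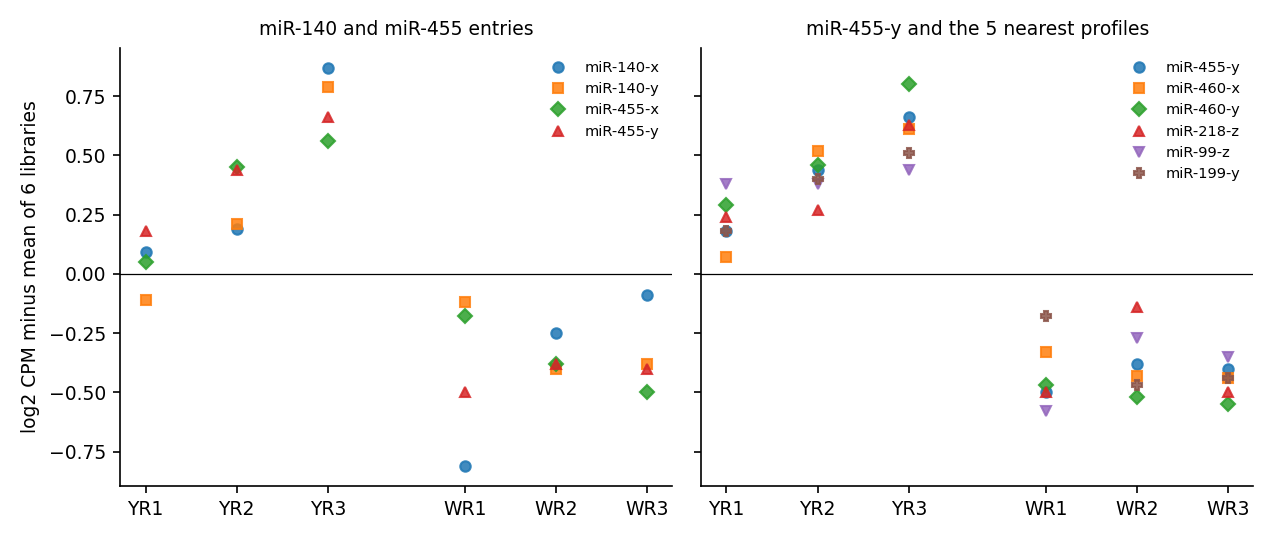
Centred log2 CPM (TMM scaled; 0 is the mean of the 6 libraries) in each YR and WR library for the 4 entries (left) and for miR-455-y with the 5 entries of most similar profile (right). miR-140-x in WR replicate 1, at -0.81, and in YR replicate 3, at 0.87, lies farthest from 0 on the left.

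Other miRNAs with known roles in cartilage and bone of mammals were described as a list of 15 families. They include miR-199 and miR-214 of mesenchyme, miR-145, which represses SOX9, miR-204 and miR-211, which repress the bone regulator RUNX2, miR-29, which limits collagens, and miR-218 and miR-138, which act on osteoblasts. For miR-675, which is on the list, the deposited table has no entry of that exact name. The list had 36 entries, of which 31 were tested. By edgeR 1 rose in YR and 0 fell, while 2.16% of all entries rose and 3.12% fell. At an unadjusted edgeR p under 0.05, 8 of the 31 were higher and 1 lower, beside 11.9% and 9.83% of all entries. By DESeq2 6 were higher and 1 lower at that threshold, and by limma on log2(TPM + 1) 3 were higher and 1 lower. Of all 834 entries, 160 by DESeq2 and 177 by limma passed it in either direction. The 8 by edgeR are not separate results, since they include several strands of miR-199 and of miR-218. They also include miR-204-x (39747 TPM in YR and 39817 TPM in WR) and miR-211-z (36355 TPM in YR and 36268 TPM in WR). The TPM means of these strands were nearly equal between the groups, and their log2 fold changes were 0.23 and 0.24 after TMM scaling. DESeq2 called 2 higher and 0 lower, beside 3.84% and 5.28% of all. The median log2 fold change was 0.23, against -0.03 over all entries. The list had 24 positive and 7 negative values, beside 407 positive and 427 negative over all 834 entries. These signs and medians hold after TMM scaling, and several of the positive entries had a lower mean TPM in YR than in WR. With library totals alone the median over all entries was -0.26. No comparison with the miR-140 and miR-455 entries is drawn, since these were chosen by a call in the same data.

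The entry that rose was miR-199-y, at 31932 ± 693 TPM in YR and 23040.3 ± 4794 TPM in WR (SD, n = 3 each), with a log2 fold change of 0.73 (SE 0.13; edgeR adjusted p = 0.0341). Like miR-455-y it lost the call with library totals alone (edgeR adjusted p = 0.136), and without WR replicate 2 (0.164) or 3 (0.126) or YR replicate 1 (0.0865), 2 (0.132) or 3 (0.126). In each of those fits at most 1 of all 834 entries passed as higher in YR. Its opposite arm miR-199-x, the most abundant miRNA of the list, stood at 308232 ± 39107 TPM in YR and 287633 ± 16923 TPM in WR and did not pass (log2 fold change 0.34, SE 0.20; edgeR adjusted p = 0.341). Without WR replicate 1, 2 of the list rose, miR-199-y and miR-214-y (log2 fold change 0.67 each), and 2 fell, miR-27-x and miR-29-x (-1.28 each), by edgeR, while 3.72% of all entries rose and 10.4% fell.

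**Figure D5:**
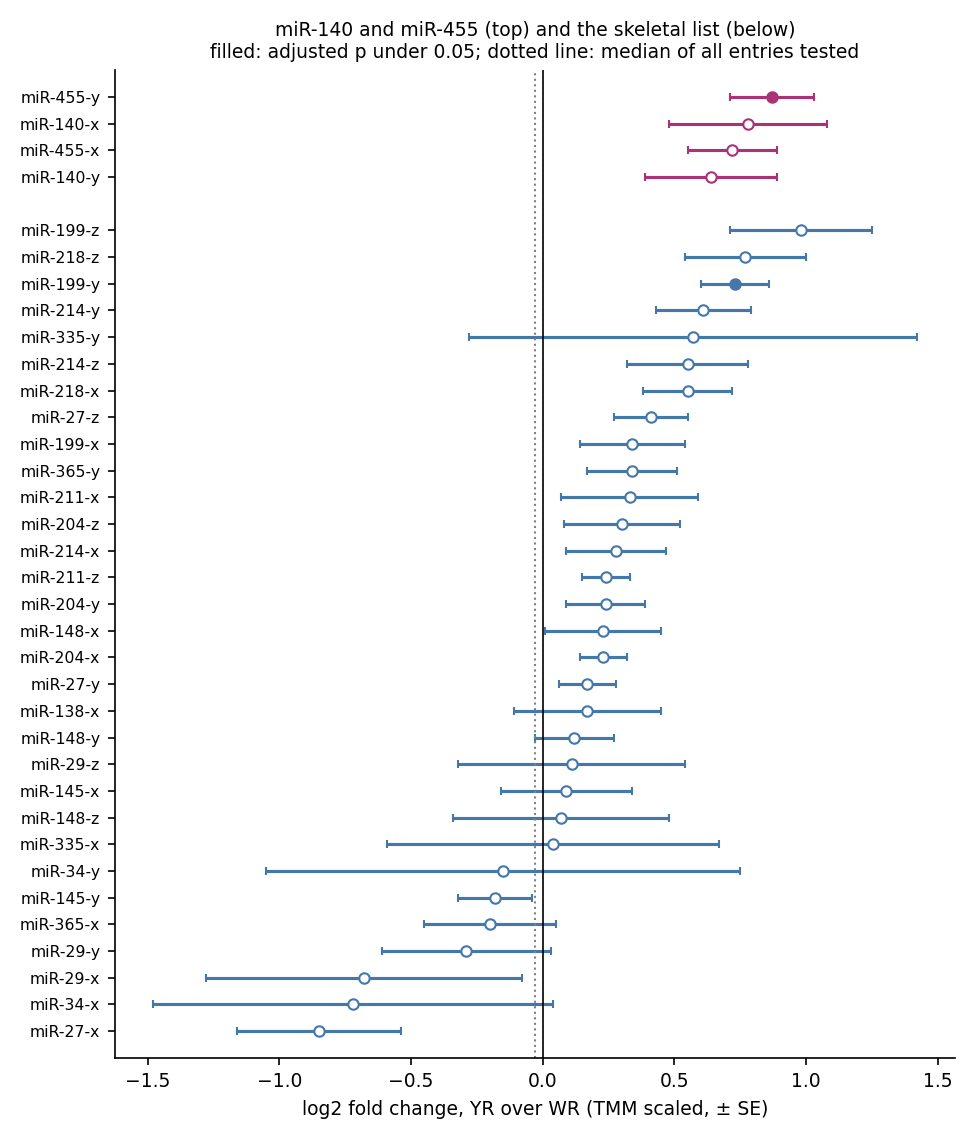
Log2 fold change of YR over WR (edgeR, TMM scaled) with its SE for the 4 miR-140 and miR-455 entries (top) and the 31 tested entries of the skeletal list (below), filled where the adjusted p was under 0.05. The 4 entries lie between 0.64 and 0.87, and the list spans -0.85 for miR-27-x to 0.98 for miR-199-z; the dotted line at -0.03 is the median of all 834 entries.

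Markers of other cells in skin are given beside these results, and their part in the levels of miR-140 and miR-455 was not tested. The mesenchymal families miR-199, miR-214, miR-143, miR-145 and miR-29 had a summed level of 317293 to 391669 TPM in YR and 313648 to 335724 TPM in WR, so the groups overlapped. All of them but miR-143 are also in the skeletal list. Most of the sum was miR-199-x, with a mean of 308232 of 353993 TPM in YR and 287633 of 326736 TPM in WR. Of the 13 log2 fold changes 8 were positive after TMM scaling, while 407 were positive and 427 negative over all 834 entries. The epidermal families summed to 82448 to 99751 TPM in YR, below the 110688 to 113406 TPM of WR in every library. After TMM scaling this separation was lost, with sums of 92969 to 96872 CPM in YR and 90539.7 to 107564 in WR. Of their 16 tested entries 12 had negative log2 fold changes after that scaling. Their most abundant entry, miR-205-x of keratinocytes, was not among these: it stood at 34812 ± 4642 TPM in YR and 36243 ± 5776 TPM in WR (SD, n = 3 each), and its log2 fold change was 0.17 after TMM scaling (SE 0.14; edgeR adjusted p = 0.46) but -0.06 with library totals alone. Skeletal muscle families summed to 13007 to 24428 TPM in YR and 17319.9 to 22073 TPM in WR, led by miR-206-y. Blood families summed to 1597 to 1899 TPM in YR and 1559 to 2041 TPM in WR, led by miR-142-x. miR-126 of endothelium summed to 7061 to 10210.0 TPM in YR and 7376 to 7659 TPM in WR. Families of nerve and glia, led by miR-338-y, summed to 830 to 982 TPM in YR and 571 to 892 TPM in WR. After TMM scaling 6 of their 7 log2 fold changes were positive. After TMM scaling the sums of the blood, endothelium and nerve lists were higher in every YR library than in every WR library. They were 1762 to 1826 CPM in YR and 1515 to 1747 in WR for blood, and 8074 to 9611 in YR and 6114 to 7168 in WR for endothelium. For nerve and glia they were 869 to 1039 in YR and 456 to 828 in WR. Of single entries 17.6% were separated in this way after TMM scaling, against 8.63% in TPM. In TPM the mean blood sum was instead lower in YR, at 1727 ± 155 against 1860.1 ± 262 in WR (SD, n = 3 each). The nerve sum of 456 CPM was that of WR replicate 1. Without this library the log2 fold change of miR-338-y was 0.02, against 0.41 with it. Sums of the mesenchyme and skeletal muscle lists still overlapped after TMM scaling. Sums after TMM scaling were added after the TPM sums had been seen. No listed entry of these lists was at 0 in all 6 libraries.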

How the data were processed

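The deposited table holds 1939 mature miRNA entries for 3 YR and 3 WR libraries. Per the file headers it gives a whole-number count and a TPM score per library, the group means, and the authors' own log2 fold change, p-value and adjusted p-value, whose test, like the aligner, database, build and treatment of reads with several matches, was not stated in these sources. The deposited TPM of a library sum to 1039894 to 1052569, and the TPM of a count of 0 was set to 0. Library totals ran from 8245698 to 10336991 counts, and 1 read was worth 0.101 to 0.127 TPM.

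The deposited counts were fitted with edgeR 4.0.16 in R 4.3.3 (library factors by TMM, quasi-likelihood fit with group as its only term, Benjamini-Hochberg adjustment over the 834 entries with a mean of at least 1 TPM, threshold 0.05). The entries left out hold 0.0369% of the counts. Arm ratios, log2((x TPM + 1)/(y TPM + 1)), were fitted with limma 3.58.1 in the 112 families with both arms at a mean of at least 1 TPM. Strands were folded with RNAduplex 2.7.2. Standard errors of the edgeR fits were derived from the fitted change and the root of its F value. Those of limma and DESeq2 came from their own fits. Alternatives were DESeq2 1.42.0, limma on log2(TPM + 1), 4 other scalings, other filters and subsets of entries, a replicate term, and leaving out each library.

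Named by rule were the 4 members, and the most abundant entry and every entry past the threshold of each list. So were the 5 profiles nearest to miR-455-y and entries that share a seed with a member. Other entries were named for their sequence or values in these data, and not all are marked where they stand. The members and lists were chosen with earlier results of these data known. Each library was taken as 1 replicate. Libraries of a group differed by more than sampling noise (chi-square per degree of freedom of 89.8 to 693), which does not show that they came from separate fish.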

Additional observations from a re-analysis of the deposited data

How the results depend on the processing

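Under 17 alternatives the 4 entries kept a positive log2 fold change. miR-455-y lost its call with upper quartile scaling (log2 fold change 0.97, adjusted p = 0.0893), library totals alone (0.62, 0.0552), limma on log2(TPM + 1) (0.61, 0.0512), no filter on low levels (0.81, 0.0606), a mean of at least 10 TPM (0.65, 0.0568), 1 entry per distinct sequence (0.72, 0.0501) and known miRNAs only (0.83, 0.249); the cause was not tested. Under each of these 0 of the 4 entries passed, and DESeq2 called 2 (miR-455-x at 0.65, adjusted p = 0.0369, beside miR-455-y). Over all entries, those called higher under these 7 settings numbered 7, 1, 4, 9, 4, 3 and 0 in the same order. The entries tested were 834, 834, 834, 1939, 331, 692 and 428, and edgeR with TMM called 18 of 834 higher. Of the skeletal list, DESeq2 called 2 higher, and library totals alone or without the 5 most abundant, limma, a mean of at least 10 TPM, distinct sequences and known miRNAs only called 0.

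Leaving out each library gave 0.68 to 0.98 for miR-455-y, 0.57 to 0.85 for miR-455-x, 0.35 to 0.82 for miR-140-y and 0.44 to 0.93 for miR-140-x, with 0 to 2 of the 4 entries past the threshold, and 0 to 2 entries of the skeletal list in each direction. Calls gained came without WR replicate 1, where miR-455-x passed at 0.66. The arm difference ran from -0.23 to -0.02 for miR-455 and from -0.14 (reversed, without WR replicate 1) to 0.35 for miR-140.

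Same-numbered libraries are not paired by the labels, and their deviations from the group means correlated at 0.26, -0.104 and 0.27. With the replicate number as a block miR-455-y had 0.85 (edgeR adjusted p = 0.0934), and 0 of the 4 entries and 0 of the skeletal list passed. Of all entries 0 passed as higher in YR in that fit. Over all entries 44 were called by edgeR, 18 higher and 26 lower, and leaving out a library gave 1 (without WR replicate 2) to 118 (without WR replicate 1); known miRNAs only gave 0 (52 at an unadjusted p under 0.05), upper quartile scaling 24, distinct sequences 22, a mean of at least 10 TPM 16, DESeq2 76, library totals alone 30 and the block 2. The split of higher against lower calls was 1 to 29 with library totals alone, 9 to 30 without the 5 most abundant and 4 to 37 with limma. miR-205-x, not called, turned negative with library totals (-0.06), limma (-0.05), a mean of at least 10 TPM (-0.04) and without WR replicate 2 (-0.08), miR-206-y with library totals (-0.00) and limma (-0.04), and miR-142-x with library totals (-0.09), limma (-0.09), a mean of at least 10 TPM (-0.06) and without WR replicate 1 (-0.01). Without single libraries miR-205-x ran from -0.08 to 0.28 and miR-142-x from -0.01 to 0.19. With 3 libraries a group and 246 to 665 reads per library, miR-140-x had the widest counting error, up to 6.38%.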
